A study of Saccharomyces cerevisiae with 9 samples.

Results

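The arginine tRNA isoacceptors of budding yeast were read by 4 probes, Arg1y, Arg2y, Arg3y and Arg4y, out of 64 tRNA probes on each of 9 microarrays. They were picked by probe name, with earlier results of these data known. All 4 were measured on every array, each on 18 spots of which 16 to 18 carried signal. Not1 depleted cells carried the degron allele not1::NOT1-AID-Myc6-NATMX4, a tag through which auxin sends Not1, the scaffold of the Ccr4-Not complex, to degradation. They were set against a wild-type strain without the degron, and both strains were MATa and carried ura3-1::pADH1-OsTIR1-URA3, the plant receptor that auxin needs, according to the sample records. The records list 1 mM auxin for 15 min for all samples, whereas the methods describe ethanol for the control and name another strain number, tag order and mating type for the degron strain. Charging was read on 3 arrays for the Not1 depleted strain and on 3 for the wild-type, and abundance on 3 more that held both strains, from cells grown independently for each replicate. Loss of Not1 itself was not measured on these arrays. The comparisons address whether the supply of charged tRNA, or of tRNA as such, changed when Not1 was removed. The paper raised this question from increased ribosome dwelling at serine codons.

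Arginine is encoded by 6 codons, and isoacceptors are tRNAs that carry the same amino acid but read different codons through different anticodons. A single cytosolic arginyl-tRNA synthetase attaches arginine to the 3′ end of all of them, after which the charged tRNA can be taken to the ribosomal A site. Since one enzyme and one amino acid pool serve the whole set while the codons read differ, the charged share can be compared among tRNAs that depend on the same supply. The RefSeq annotation of the R64 genome holds 19 nuclear genes for arginine tRNAs, with 4 anticodons and 5 distinct gene sequences. The anticodon UCU, which reads AGA, has 11 genes with the same sequence. ACG, which becomes ICG in the mature tRNA and reads CGU, CGC and probably CGA, has 6 genes, 5 of which share 1 sequence. CCG, which reads CGG, has 1 gene, the essential TRR4, and CCU, which reads AGG, has 1 gene, HSX1, annotated as a low-abundance tRNA. The deposited tables number the probes and give neither anticodons nor probe sequences, so which of these tRNAs each probe reads was not determined here.

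One gene per anticodon is printed to show what the probes had to tell apart, 5′ to 3′ on the coding strand with the anticodon in capitals (RefSeq, R64, chrII:405878-405949 plus strand, chrIV:619969-620041 minus strand, chrXII:818609-818680 plus strand and chrX:538555-538626 plus strand, each the whole exon of a tRNA gene with no intron annotated).
tRNA-Arg UCU: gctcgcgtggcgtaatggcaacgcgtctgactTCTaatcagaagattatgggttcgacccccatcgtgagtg
tRNA-Arg ACG: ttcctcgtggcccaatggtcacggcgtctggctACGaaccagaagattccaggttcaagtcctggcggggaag
tRNA-Arg CCG (TRR4): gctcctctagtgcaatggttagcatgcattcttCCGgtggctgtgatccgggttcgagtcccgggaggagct
tRNA-Arg CCU (HSX1): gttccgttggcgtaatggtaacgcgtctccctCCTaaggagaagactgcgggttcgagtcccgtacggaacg
In global alignments the UCU and CCU genes were the closest pair, with 55 identical bases in 74 aligned columns (74.3%). The UCU and CCG genes were the most distant, with 41 identical bases in 75 columns (54.7%). The other 4 pairs lay between 59.0% and 67.6%.

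In the charging experiment, periodate oxidised the 3′ ends of uncharged tRNA in one aliquot, so that only its charged tRNA could be labelled with Cy3, while a second aliquot of the sample was labelled whole with an Atto dye. The charged fraction is thus Cy3 over Atto, scaled so that the median of 4 in vitro transcribed standards added to the RNA equals 100%. This is a ratio to the standards and not an absolute share, since values above 100% occurred for Arg2y, Arg3y and Arg4y. The median over the 64 probes was 102%, 64.9% and 77.5% on the arrays of Not1 depleted cells, and 107%, 99.1% and 51.8% on those of the wild-type. The members' values therefore moved on top of shifts that whole arrays shared.

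Removal of Not1 was accompanied by no change in the charged fraction of any arginine probe that exceeded the spread between replicates. Arg1y stood at 88.5%, 63.2% and 70.7% in Not1 depleted cells, against 96.8%, 84.8% and 53.9% in wild-type cells. The 3 values of each strain overlapped, and the means were 74.1% ± 13.0 in Not1 depleted cells and 78.5% ± 22.1 in wild-type cells (SD, n = 3 each). Arg1y was the steadiest of the 4, with the wild-type replicate 3 as its lowest array.

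Arg2y stood at 114%, 58.9% and 68.6% in Not1 depleted cells, against 51.0%, 101% and 42.8% in wild-type cells. Replicate 1 was high in the Not1 depleted set, and replicate 2 was high in the wild-type set, while the other 4 arrays lay between 42.8% and 68.6%. The means were 80.5% ± 29.4 in Not1 depleted cells and 64.9% ± 31.4 in wild-type cells (SD, n = 3 each).

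Arg3y stood at 122%, 86.5% and 115% in Not1 depleted cells, against 167%, 129% and 69.4% in wild-type cells. The wild-type set held both its highest and its lowest array, so that the Not1 depleted values fell inside the wild-type range. The means were 108% ± 18.8 in Not1 depleted cells and 122% ± 49.2 in wild-type cells (SD, n = 3 each).

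Arg4y stood at 188%, 55.4% and 78.1% in Not1 depleted cells, against 148%, 115% and 46.6% in wild-type cells. It had the widest spread of the 4, with replicate 1 the highest array in each strain. The means were 107% ± 70.7 in Not1 depleted cells and 103% ± 51.5 in wild-type cells (SD, n = 3 each).

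**Figure D1:**
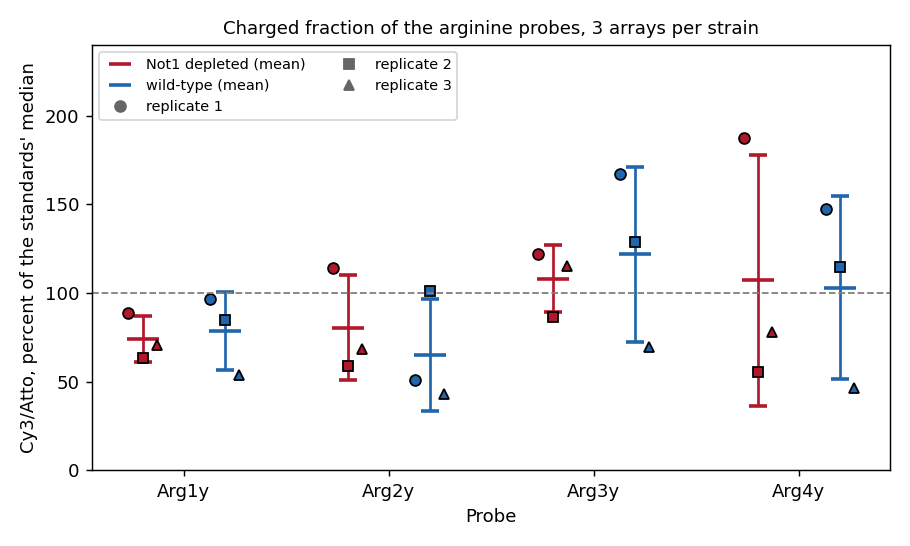
Charged fraction of the 4 arginine probes (y axis, Cy3/Atto as percent of the median of the standards, dashed line at 100%) by probe (x axis), with Not1 depleted arrays in red at the left and wild-type arrays in blue at the right. Symbols are single arrays, horizontal bars are means and error bars are SD (n = 3 each); the values of the strains overlap for every probe, and Arg4y spans 46.6% to 188%.

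In the limma model over the 6 charging arrays the log2 change, Not1 depleted minus wild-type, was -0.05 for Arg1y, 0.35 for Arg2y, -0.10 for Arg3y and 0.01 for Arg4y, each with a standard error of 0.47. The adjusted p was 0.994 for each. Of the 4 members 0 passed the threshold of 0.05, and of all 64 probes 0 passed it (0%) and 0 had an unadjusted p under 0.05. No member separated the strains without overlap, nor did any of the 64 probes (0%). The 95% interval of the change ran from -0.97 to 0.86 for Arg1y and from -0.56 to 1.27 for Arg2y. It ran from -1.01 to 0.82 for Arg3y and from -0.90 to 0.93 for Arg4y. Changes within these limits were not excluded with 3 arrays per strain. The change for Arg2y lay between 0.07 and 0.73 when 1 array was left out. The sign for Arg1y, Arg3y and Arg4y turned with a single array left out, and for each member in at least 1 setting of the background or the standards.

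The percent values depended on the background correction, on the standards and on the rule for empty spots. They were 0.44 to 0.50 times as high without the standard Ser3h and 2.01 to 2.26 times as high with empty spots kept. The standards were dim in Atto, with array medians of 111 to 241 intensity units after correction and an added offset of 50. The members' Atto intensity on the same arrays was 396 to 1002 for Arg4y and 3093 to 19855 for Arg2y. With plain subtraction the mean for Arg1y was 26.6% in Not1 depleted cells and 38.6% in wild-type cells, and that for Arg3y was 39.0% in Not1 depleted cells and 60.2% in wild-type cells. Differences between members within an array do not depend on the standards.

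Within an array, the isoacceptors could be compared with each other on the same RNA, but the probes differed in brightness. On each charging array Arg3y was dimmer in Atto (1669 to 3835) than Arg1y (3687 to 10648) and Arg2y (3093 to 19855). Arg4y was dimmer still (396 to 1002). No normalization by intensity was made, and whether the ratio depends on brightness was not tested. On all 6 charging arrays charged tRNA was in Cy3 and total tRNA in Atto, with no dye swap. A dye effect that differs between probes and a difference in charging therefore cannot be told apart. Arg3y had the highest charged fraction of the 4 on 5 of 6 charging arrays, and Arg4y on the remaining one, replicate 1 of the Not1 depleted cells. In order of the mean log2 charged fraction over the 6 arrays, Arg3y came first with 0.14 ± 0.45, followed by Arg4y with -0.11 ± 0.80, Arg1y with -0.42 ± 0.32 and Arg2y with -0.55 ± 0.56 (SD, n = 6). The full order differed among arrays and was the same only on replicate 3 of the Not1 depleted cells and replicate 1 of the wild-type.

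Arg3y minus Arg1y, on the log2 scale, was 0.46, 0.45 and 0.70 on the Not1 depleted arrays, against 0.79, 0.60 and 0.37 on the wild-type arrays. The difference was positive on all 6 arrays and averaged 0.56 ± 0.16 (SD, n = 6), a 1.48-fold higher ratio for Arg3y. It was the steadiest of the 6 pairs, with a range over arrays of 0.42. The spot error of such a difference on one array was 0.02 to 0.07.

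Arg3y minus Arg2y was 0.10, 0.56 and 0.75 on the Not1 depleted arrays, against 1.71, 0.35 and 0.70 on the wild-type arrays. It too was positive on all 6 arrays, with a mean of 0.69 ± 0.55 (SD, n = 6), or 1.62-fold, but its size varied by 1.61 between arrays. Replicate 1 of the wild-type, where Arg2y stood at rank 9 of 64 from the lowest, gave the largest value, and without that array the mean was 0.49.

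For these 2 pairs an exact two-sided sign-flip test over the 6 arrays gave p = 0.03125, the smallest value that 6 arrays can give. After Benjamini-Hochberg adjustment over all 2016 pairs of probes it was 0.0567, the smallest adjusted value that any pair reached, so neither pair passed the threshold of 0.05. Of the 6 arginine pairs 2 had the same direction on all 6 arrays (33.3%), against 1112 of 2016 pairs of any probes (55.2%). A fixed direction was therefore no more frequent among arginine isoacceptors than among probes at large, and the median size of the mean difference was 0.38 for the arginine pairs and 0.55 for all pairs.

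The other 4 pairs changed direction between arrays. Arg3y minus Arg4y averaged 0.25 ± 0.47 and was positive on 5 of 6 arrays (exact sign-flip p = 0.219, adjusted 0.280). Arg4y minus Arg2y averaged 0.44 ± 0.60 and was positive on 5 of 6 arrays (exact sign-flip p = 0.0625, adjusted 0.0989).

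Arg4y minus Arg1y averaged 0.31 ± 0.50 and was positive on 4 of 6 arrays (exact sign-flip p = 0.219, adjusted 0.280). Arg1y minus Arg2y averaged 0.13 ± 0.46 and was positive on 4 of 6 arrays (exact sign-flip p = 0.562, adjusted 0.618). Neighbours in the order of means therefore did not differ beyond their spread. In the pair of Arg1y and Arg2y the mean was -0.03 without replicate 1 of the wild-type. The single arrays ran from -0.36, on replicate 1 of the Not1 depleted cells, to 0.92, on replicate 1 of the wild-type.

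**Figure D2:**
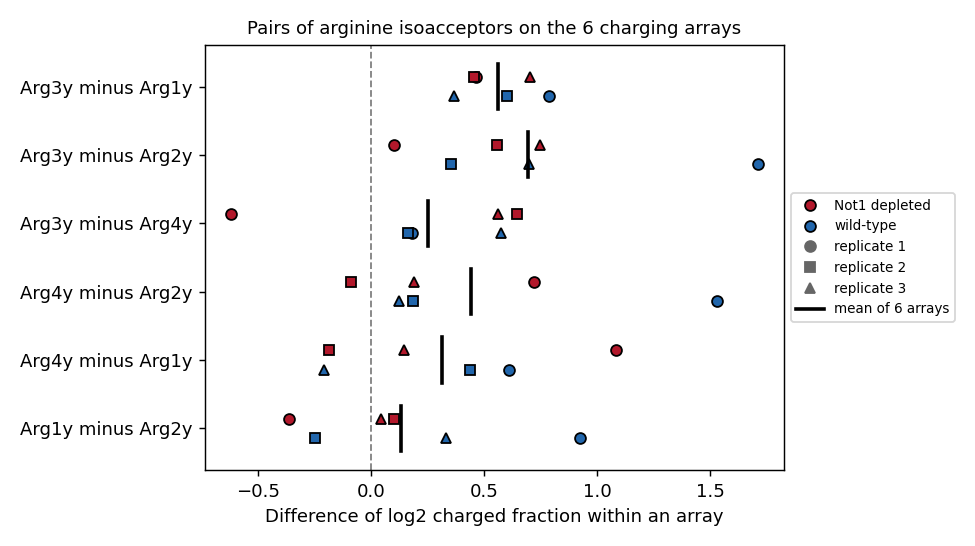
Within-array difference in log2 charged fraction (x axis) for the 6 pairs of arginine isoacceptors (y axis), with Not1 depleted arrays in red above wild-type arrays in blue, symbols for replicates and a black bar for the mean of 6 arrays. Only Arg3y minus Arg1y and Arg3y minus Arg2y lie to the right of 0 on all 6 arrays, with means of 0.56 and 0.69.

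The pair differences were compared between strains with an exact two-sided permutation test of 3 against 3 arrays, which cannot give a p below 0.1. Arg3y minus Arg2y was 0.47 ± 0.33 in Not1 depleted cells and 0.92 ± 0.71 in wild-type cells (SD, n = 3 each; difference -0.45, exact p = 0.5). Arg1y minus Arg2y was -0.07 ± 0.25 in Not1 depleted cells and 0.34 ± 0.59 in wild-type cells (SD, n = 3 each; difference -0.41, exact p = 0.4). For the other 4 pairs the difference between strains lay between -0.34 and 0.07, with exact p of 0.7 to 0.9. The steadiest pair, Arg3y minus Arg1y, was 0.54 ± 0.14 in Not1 depleted cells and 0.58 ± 0.21 in wild-type cells (SD, n = 3 each; difference -0.04, exact p = 0.9).

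Among the 64 probes, ranked from the lowest charged fraction on each array, Arg3y held ranks 37 to 61 with a median of 54.5. Arg1y stayed between ranks 26 and 36, close to the middle. Arg2y ranged from 9 to 35 and Arg4y from 24 to 58. The spots of each probe lay at 2 positions of a block, 12 spots in an upper row and 6 in row 3, and the ratios at these positions differed by at most 0.17 on the log2 scale on any array. The SD over the spots of one charging array was 0.06 to 0.22, and the SD over the 6 charging arrays was 0.32 for Arg1y and 0.80 for Arg4y.

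The spread of the mean log2 charged fraction from the lowest to the highest isoacceptor was 0.69 for arginine, a 1.62-fold range. The other amino acids with 6 codons had 0.18 over 4 leucine probes and 1.05 over 3 serine probes, and the whole set of 64 probes spanned 2.97. Of the 6 leucine pairs 1, and of the 3 serine pairs 2, had the same direction on all 6 arrays. The differences between these amino acids were not tested. The 2 arginine probes with the prefix m in their names, mArg1y and mArg2y, averaged -0.54 and -0.20. They were dim, with Atto intensities of 66 to 114 on the charging arrays, the offset of 50 included. For charging, the median change between strains was -0.02 for the arginine probes, -0.01 for leucine, -0.04 for serine and -0.20 for the mArg probes, against 0.00 over all 64 probes, with 0 probes of any list past the threshold. With plain subtraction of the background mArg1y was 1 of 4 probes that passed it, all lower in Not1 depleted cells, and the members did not pass.

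After each array's median was subtracted, the pattern over the 6 charging arrays was most like that of mThr1y (r = 0.93) and mMet2y (r = 0.87) for Arg1y. For Arg2y the nearest were Gln1y (r = 0.93) and Lys1y (r = 0.90), for Arg3y mAsn1y (r = 0.94) and Ser3y (r = 0.81), and for Arg4y mSer2y (r = 0.96) and Ser2y (r = 0.96). No other arginine probe was among them, and r between the members ran from -0.84, for Arg2y and Arg3y, to 0.13, for Arg1y and Arg3y. These are the highest of 63 correlations each over 6 arrays, they share arrays and standards, and they are given as a description.

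The abundance arrays carried Not1 depleted tRNA in Cy3 beside wild-type tRNA in Atto, with no dye swap, so a dye effect and a strain effect cannot be told apart. All 4 members had a mean ratio below 1, and none passed the test. The log2 ratio of Not1 depleted over wild-type for Arg1y was -1.90, -1.16 and -0.27 on replicates 1, 2 and 3. That for Arg2y was -2.20, -0.26 and -1.21. The 2 probes ranked the arrays differently, with Arg1y nearest to 0 on replicate 3 and Arg2y on replicate 2.

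Arg3y had log2 ratios of -1.47, -0.43 and -0.82, and Arg4y had -2.12, -0.10 and -1.15. Both followed Arg2y in having replicate 1 lowest and replicate 2 nearest to 0. The median of the 64 probes moved in the same order, with -1.86 on replicate 1, 0.02 on replicate 2 and -0.58 on replicate 3.

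The means were -1.11 ± 0.82 for Arg1y, -1.22 ± 0.97 for Arg2y, -0.91 ± 0.52 for Arg3y and -1.12 ± 1.01 for Arg4y (SD, n = 3), each with a limma standard error of 0.58. The adjusted p was 0.209 for Arg1y, Arg2y and Arg4y and 0.238 for Arg3y, and 0 of 64 probes (0%) passed the threshold. At an unadjusted p under 0.05, Arg2y alone of the members was lower, among 13 of 64 probes (20.3%). The limma standard error was the same for all probes, so this p did not rest on Arg2y's own spread. The median over the 4 members was -1.12, against -0.90 over all 64 probes, of which 58 had a mean below 0. The 64 include 24 probes with the prefix m, all with means of -0.60 to 0.46, at ranks 41 to 64 from the lowest. The members held ranks 7 to 32. The median of all 64 thus lay above that of the probes without the prefix. All 13 probes at an unadjusted p under 0.05 were without the prefix, so their share was higher among probes like the members. The 4 leucine probes had a median of -1.09 and the 3 serine probes of -1.05, each with 1 probe at an unadjusted p under 0.05. The dim probes mArg1y and mArg2y had means above 0, with 0.33 and 0.34 (adjusted p = 0.729 each). They are not weighed against the members, since few of their spots carried signal. These were 5 and 2 spots of mArg1y on replicates 2 and 3, and 7 of mArg2y on replicate 3.

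All 4 members were below 0 on all 3 arrays, as were 19 of 64 probes (29.7%). With plain subtraction of the background 3 of 4 were, since Arg1y stood at 0.06 on replicate 3, and 33 of 64 probes were. Relative to each array's median, 2 of 4 members, Arg2y and Arg4y, were lower on all 3 arrays, as were 12 of 64 probes (18.8%). That median includes the probes with the prefix m. Scaled in that way the mean log2 ratios were -0.30 for Arg1y, -0.41 for Arg2y, -0.10 for Arg3y and -0.31 for Arg4y, with adjusted p of 0.423 to 0.813.

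The values depended on single arrays. Without replicate 2, 23 of 64 probes (35.9%) were lower past the threshold, and 2 of the 4 members were among them. These were Arg2y, with a log2 ratio of -1.71 (adjusted p = 0.0299), and Arg4y, with -1.63 (adjusted p = 0.0329). Arg1y, at -1.08, and Arg3y, at -1.14, did not pass the threshold. Without replicate 1 the ratios were smaller, -0.71 for Arg1y, -0.73 for Arg2y, -0.63 for Arg3y and -0.63 for Arg4y (adjusted p = 0.906 each). Each of these fits rests on 2 arrays, and the adjusted p of Arg2y ran from 0.0299 to 0.906 over the 3 arrays left out in turn.

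**Figure D3:**
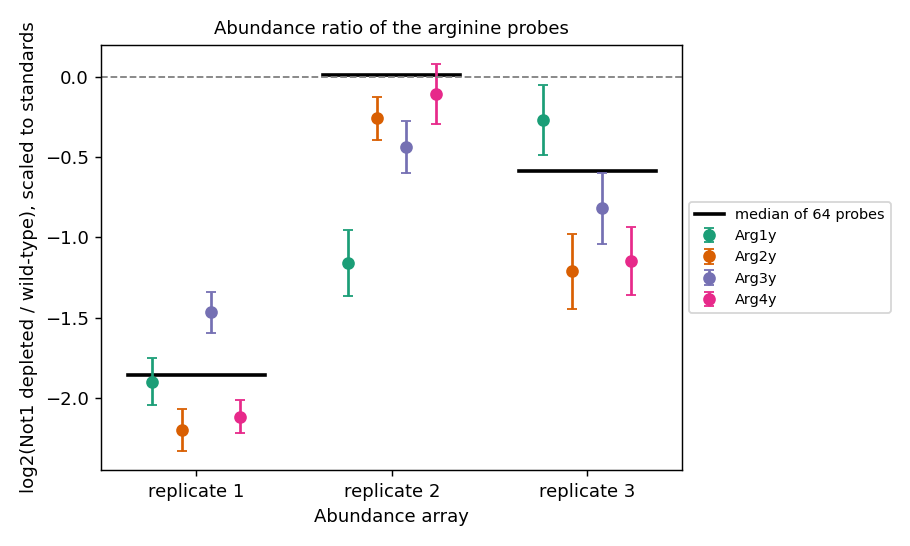
Log2 ratio of Not1 depleted over wild-type (y axis) on the 3 abundance arrays (x axis) for the 4 arginine probes, with error bars for the SD over the spots of one array and a black bar for the median of 64 probes. The members lie below 0 on each array. Arg2y, Arg3y and Arg4y have the arrays in the same order as the median (-1.86, 0.02 and -0.58), and Arg1y does not.

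The highest and the lowest isoacceptor by abundance ratio changed between arrays. Arg3y was the highest of the 4 on replicate 1, Arg4y on replicate 2 and Arg1y on replicate 3, and Arg1y was also the lowest on replicate 2. The mean ratios of the 4 members spanned 0.32 on the log2 scale, from Arg2y to Arg3y. Leaving out 1 array gave spans of 0.11 to 0.62, and no test was made with 3 arrays, where an exact sign-flip p cannot go below 0.25. Arg4y minus Arg2y was 0.08, 0.15 and 0.07 on the 3 arrays, the one pair with the same sign on all of them. Arg4y minus Arg1y had the mean closest to 0, -0.01, but ran from -0.88 to 1.05.

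The total tRNA channel of the charging arrays, the Atto intensity relative to the standards, gave a separate reading of tRNA level in each strain. Levels of different probes were not compared here, since signal per molecule can differ between probes. Arg1y stood at 4.27, 5.87 and 5.43 on the log2 scale in Not1 depleted cells, against 5.62, 5.04 and 5.17 in wild-type cells. Arg2y stood at 4.01, 5.73 and 5.36 in Not1 depleted cells, against 6.52, 4.54 and 5.73 in wild-type cells. For both, replicate 1 was the lowest Not1 depleted array and the highest wild-type array.

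Arg3y stood at 3.12, 4.08 and 4.01 in Not1 depleted cells, against 4.15, 3.43 and 3.88 in wild-type cells. Arg4y stood at 2.39, 2.41 and 1.84 in Not1 depleted cells, against 1.69, 1.29 and 2.24 in wild-type cells. Arg4y alone had its lowest Not1 depleted value on replicate 3 and its highest wild-type value on replicate 3. The strains overlapped for all 4 members, so 0 of 4 separated the strains, whereas 5 of 64 probes (7.81%) did.

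The log2 change of the total channel, Not1 depleted minus wild-type, was -0.09 ± 0.60 for Arg1y, -0.56 ± 0.61 for Arg2y, -0.08 ± 0.60 for Arg3y and 0.47 ± 0.60 for Arg4y (limma standard error, 3 arrays per strain, adjusted p = 0.961 each). Of the 64 probes 0 passed the threshold (0%), and 1 was higher at an unadjusted p under 0.05. The median over the members was -0.09, against 0.06 for leucine, 0.25 for serine, 0.75 for the dim mArg probes and 0.15 over all 64 probes. The change for Arg2y lay between -1.09 and -0.05 when 1 array was left out. Set side by side, the abundance ratio and the change of the total channel were -1.22 and -0.56 for Arg2y, and -1.12 and 0.47 for Arg4y, so that the measures had opposite signs for Arg4y without either passing its test. The sign for Arg1y and Arg3y turned with other background corrections and with replicate 1 of either strain left out.

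**Figure D4:**
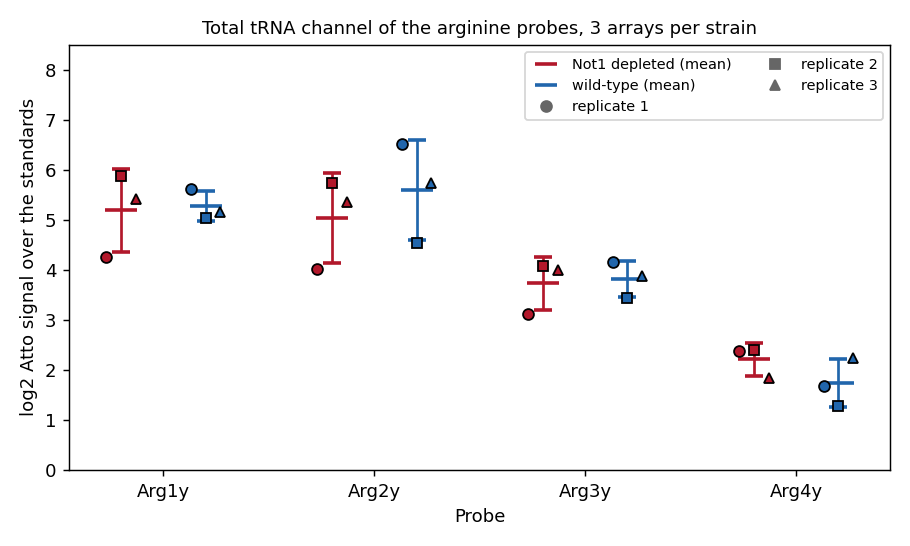
Total tRNA channel of the 4 arginine probes (y axis, log2 Atto intensity over the median of the standards) by probe (x axis), with Not1 depleted arrays in red at the left, wild-type arrays in blue at the right, means as bars and SD as error bars (n = 3 each). The strains overlap for every probe, and heights of different probes are not comparable.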

How the data were processed

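Two-colour tRNA microarrays of yeast were used, 3 charging arrays per strain and 3 abundance arrays. The deposited tables hold, per spot, the Atto and Cy3 foreground and background intensity from image software, without normalization, and the percent of pixels above background, per the file headers. Spike-in normalization was done by the authors in Python, and normalized values were not used here. The standards, at 4 pmol each, had been added to 2 µg of total RNA, per the labels. Names of block rows 6 to 8 were taken from the row above and row 5 was dropped, since names there stand 1 row above their spots. The arginine spots lie in rows 1 to 3, so the move acts on them only through the standards.

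Background was corrected with normexp (offset 50, limma 3.58.1, R 4.3.3). Spots with under 50% of pixels above background plus 2 SD in both channels were left out. Log2 Cy3/Atto was scaled to the median of EcTyr2, EcLys2, His1h and Ser3h and averaged over spots for 64 probes. Strains were compared with lmFit and eBayes and Benjamini-Hochberg adjustment over the 64 probes (threshold 0.05), isoacceptors with exact sign-flip or permutation tests. The fits were tested on simulated data, with noise independent between probes and smaller than the spread between the arrays, and no shift shared by an array. That test does not show how the fits behave on arrays with such shifts. The exact tests measure the spread between arrays, whose number limits the precision. In the limma fits of charging and abundance the standard error was the same for all 64 probes (0.47 and 0.58). Their p-values and intervals rest on a variance pooled over probes that share arrays, and not on a probe's own spread. Gene sequences were read from RefSeq R64 and aligned with Biopython 1.88, and plots made with matplotlib 3.10.9. The array design's build is not given in the sources used here.

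The 4 members were described in full, and for each the 2 probes most correlated with it were named. The members and the lists (leucine, serine and mArg probes) were chosen with earlier results of these data known. Alternatives covered background, scaling, spots, names, filters, the variance model, the replicate block, each array left out, and percent averaged on the log2 scale or capped at 100%. Saturated spots left out, probes ending in h left out and an offset of 0 were added after seeing the data. Of the arginine spots, 1 was saturated.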

Additional observations from a re-analysis of the deposited data

How the results depend on the processing

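The 2 pairs with a fixed direction, Arg3y above Arg1y and above Arg2y, kept it under each alternative run on the pairs (scaling cancels within an array, and choices of the limma fit do not enter), with means of 0.52 to 0.60 and 0.49 to 0.81, and the count of such pairs was 2, or 3 without replicate 1 or replicate 2 of the Not1 depleted cells. For charging, plain subtraction gave 4 probes past the threshold in place of 0, mArg1y among them but no member. It turned the sign for Arg2y (-0.083) and Arg4y (-0.43). The change for Arg4y was -0.10 with no background correction, -0.17 with the mean foreground and -0.25 with an offset of 0. Without the standard Ser3h it was 0.047 for Arg1y and 0.0032 for Arg3y. Leaving out 1 array gave -0.30 to 0.12 for Arg1y, 0.07 to 0.73 for Arg2y, -0.46 to 0.18 for Arg3y and -0.49 to 0.39 for Arg4y. In the total channel, the changes for Arg1y and Arg3y were 0.20 and 0.19 with plain subtraction, 0.041 and 0.039 with no correction, and 0.18 and 0.18 with an offset of 0. Leaving out 1 array gave -0.43 to 0.37 for Arg1y, -1.09 to -0.05 for Arg2y and -0.28 to 0.22 for Arg3y. For abundance, leaving out 1 array gave 0 to 23 probes past the threshold and a span between members of 0.11 to 0.62. Names as deposited moved the median of all probes to 0.05 and the ratio to -0.24 for Arg1y, -0.35 for Arg2y, -0.03 for Arg3y and -0.25 for Arg4y, and with them 2 of 4 members were below 0 on all arrays. With empty spots kept 1 of 4 was, and without Ser3h 3 of 4. The causes were not tested. Percent charged was 0.35 to 0.51 times its value with plain subtraction, 0.44 to 0.50 times without Ser3h and 2.01 to 2.26 times with empty spots kept. With the replicate number as a block, the change was -0.05 for Arg1y and 0.35 for Arg2y (adjusted p = 0.994 each), and no call changed. Deviations from the strain mean had r of 0.09, -0.61 and -0.06 over probes between arrays with the same number. Between arrays with different numbers r ran from -0.70 to 0.78, a range that holds these values. The check therefore cannot decide on pairing, and the numbers were not taken to pair the arrays. A slide block was not run, since no slide is named.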
